A study of Mus musculus with 2 samples.

Results

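The guanylate-binding proteins examined here were the 8 genes Gbp2 to Gbp9, chosen by symbol among the 32432 genes of the count matrices, in leukocytes sorted from B16-F10 tumours (a mouse melanoma line). One group of mice had the genotype Trex1 fl/fl-R26CreERT2-ki/wt (here iKO) and the other Trex1 wt/fl-R26CreERT2-ki/wt (here control), so the control animals also carried the Cre recombinase, kept 1 wild-type allele of Trex1 and carried 1 floxed allele. All mice were male, aged 8 to 12 weeks, and received 1000 tumour cells in Matrigel intradermally in each leg. Both groups received 1 mg tamoxifen daily for 3 days, starting on day 5, and were sampled on day 14. CreERT2 was expressed from the R26 locus, which is active in most tissues, so host cells of every type were exposed to the deletion, while the implanted tumour cells kept their own Trex1. Live CD45-positive cells of 4 hashtagged samples per genotype were run as 1 pool per genotype, which means that an effect of genotype and one of pool cannot be told apart. The labels do not say whether a hashtagged sample is 1 mouse, and p-values measure only the spread between these samples, which may be technical. The design text asks how the immune response to Trex1 loss acts on tumour growth.

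Guanylate-binding proteins are large GTPases of the dynamin superfamily that interferons induce, interferon gamma most of all. They assemble on bacteria and on the vacuoles that hold pathogens, where they expose microbial products to inflammasomes and to the caspase encoded by Casp4. Interferon-activated factors bind their promoters at GAS elements and at interferon-stimulated response elements (ISRE), the latter a target of IRF1. Trex1, the targeted gene, encodes an exonuclease that removes cytosolic DNA and thereby restrains type I interferon.

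Gbp2 (ENSMUSG00000028270), Gbp3 (ENSMUSG00000028268), Gbp5 (ENSMUSG00000105504) and Gbp7 (ENSMUSG00000040253) lie on the plus strand of chromosome 3, and Gbp4 (ENSMUSG00000079363), Gbp6 (ENSMUSG00000104713), Gbp8 (ENSMUSG00000034438) and Gbp9 (ENSMUSG00000029298) on the minus strand of chromosome 5. Because interferon factors read these genes together, the 250 bases before the start of each of the 4 members matched in the RefSeq promoter table (build GRCm38.p6, plus strand) are shown 5′ to 3′, with matches to an ISRE-type word (GAAA, any 2 bases, GAAA), searched on both strands, in capitals.
Gbp2, chr3:142620413-142620662: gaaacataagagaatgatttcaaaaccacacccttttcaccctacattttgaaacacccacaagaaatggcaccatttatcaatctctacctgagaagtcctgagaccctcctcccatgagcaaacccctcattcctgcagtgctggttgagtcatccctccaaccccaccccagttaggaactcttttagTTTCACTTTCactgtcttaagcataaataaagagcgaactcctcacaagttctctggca
Gbp3, chr3:142559794-142560043: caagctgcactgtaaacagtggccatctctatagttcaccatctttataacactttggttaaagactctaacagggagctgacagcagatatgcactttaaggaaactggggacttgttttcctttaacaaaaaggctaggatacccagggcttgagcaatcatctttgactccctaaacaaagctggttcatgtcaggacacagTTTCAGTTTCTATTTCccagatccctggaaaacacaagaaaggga
Gbp5, chr3:142496684-142496933: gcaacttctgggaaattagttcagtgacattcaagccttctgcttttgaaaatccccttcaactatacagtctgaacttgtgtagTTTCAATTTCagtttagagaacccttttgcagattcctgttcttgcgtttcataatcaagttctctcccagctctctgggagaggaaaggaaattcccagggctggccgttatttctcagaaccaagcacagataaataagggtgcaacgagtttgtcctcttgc
Gbp7, chr3:142530086-142530335: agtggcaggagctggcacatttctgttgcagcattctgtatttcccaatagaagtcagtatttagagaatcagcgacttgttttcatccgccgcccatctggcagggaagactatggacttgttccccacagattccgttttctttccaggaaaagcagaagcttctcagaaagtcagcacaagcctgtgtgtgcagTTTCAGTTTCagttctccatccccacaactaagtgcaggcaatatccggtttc
Each of the 4 sequences held the word, in every case on the opposite strand, and in Gbp3 a pair of overlapping matches forms 1 run. The match began 59 bases before the start in Gbp2, 45 in Gbp3, 165 in Gbp5 and 53 in Gbp7. The word was present in 2.98% of all 32851 windows of this length in the table. The GAS word TTCNNNGAA was found in the windows of Gbp5 and Gbp7, against 7.02% of all windows, and its matches did not overlap the ISRE matches. A second annotated start of Gbp3 had neither word in its window. Gbp4, Gbp6, Gbp8 and Gbp9 were not matched.

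The counts are of unique molecular identifiers (UMIs), each standing for 1 captured RNA molecule, read from the 3′ ends of transcripts. Samples held 1362 to 6117 barcodes, and 22051 cells were kept, with a median of 12994.5 to 14490.5 UMIs per cell in iKO and 6406 to 11834.5 in control samples. Trex1 itself had 0 counts in 7 samples and 2 counts in control 2, so it could not check the genotype labels. iKO 1 and iKO 2 stood apart from the other samples in their CD8 T cell share and Ifng, with values given beside the monocyte/macrophage results. Leukocyte types were set per cell by marker gates, which placed 16472 cells (74.7%), while 12.2% passed gates of more than 1 lineage and were left out (13.8% in iKO, 9.75% in control). A shared stretch between genes limits 1 member: 77.8% of the 50-base words in the last 500 bases of Gbp6 transcripts recur in Gm43302, Gbp10 or Gbp9, so its counts are uncertain, against 6.43% for Gbp4, 5.99% for Gbp5 and 0% for the others.

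Levels are CPM, the UMIs of a gene per 1000000 UMIs of that type in a sample, not scaled to length and therefore not compared between genes. In control samples the members were spread unevenly over the leukocyte types, and each had its own order. Ranges of neighbouring types in an order overlapped for all neighbours but those named below, and the orders are a description. Levels were not tested between types. Overlap does not show that types were alike, since the types come from the same samples and the ranges ignore this.

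Among the types with levels per sample, control Gbp2, which coats parasite and bacterial vacuoles, was highest in type 1 conventional and mature dendritic cells and monocyte/macrophages. In control samples its order ran from type 1 conventional dendritic cells (cDC1), at 176 ± 166 CPM (SD, n = 3), through monocyte/macrophages at 152 ± 93.7, mature dendritic cells at 97.4 ± 43.0, CD4 T cells, regulatory T cells (Treg), neutrophils at 56.6 ± 20.6 and CD8 T cells at 30.2 ± 9.03 to B cells at 11.4 ± 8.24 (n = 4 unless given). Every CD8 T sample was above every B cell sample. The cDC1 samples ran from 18.3 to 349 CPM. Not all dendritic cells were high: pooled over control samples, plasmacytoid dendritic cells stood at 5.15 plain CPM of Gbp2, on 2 counts. In iKO the neutrophils stood second, at 386 ± 177 CPM, after monocyte/macrophages at 441 ± 349. Gbp5, which has been linked to inflammasome assembly, had its highest level in mature, Ccr7- and Fscn1-positive dendritic cells. It stood there at 115 ± 42.7 CPM in control, with every sample above every Treg sample, the next type at 44.7 ± 7.57 (n = 3). In iKO it was 252 ± 90.9 in mature dendritic cells and 90.3 ± 64.7 in monocyte/macrophages. The lowest control level of Gbp5 was in neutrophils, at 4.27 ± 3.17, below every B cell sample.

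Among the types with levels per sample, Gbp4, Gbp6 and Gbp7 were highest in T cells in control samples. Natural killer cells, too few for this order, were not lower for Gbp4 and Gbp7. Pooled over control samples, in plain CPM, they stood at 115 for Gbp4, 121 for Gbp7 and 2.96 for Gbp6, the last on 1 count. Gbp4, described as a partner of the interferon factor IRF7, stood at 99.1 ± 32.6 CPM in Treg (n = 3), 91.6 ± 40.6 in CD4 T and 57.4 ± 9.23 in CD8 T cells, followed by B cells, mature dendritic cells, cDC1 and monocyte/macrophages at 22.6 ± 11.2, all of whose samples were above the neutrophils at 3.96 ± 1.91. Gbp7, linked to assembly of the phagocyte oxidase, was highest in Treg at 220 ± 34.0 (n = 3), with no overlap with CD4 T cells at 117 ± 21.8, and then fell in the order CD8 T, monocyte/macrophage, cDC1, neutrophil, B cell and mature dendritic cell, at 23.2 ± 18.1. Gbp6 stood at 19.7 ± 8.67 in Treg and 17.1 ± 4.69 in CD4 T cells, the latter above every CD8 T sample (8.65 ± 3.32). It was near 0 in cDC1, mature dendritic cells and neutrophils, with 3, 1 and 1 counts over all control samples and 10, 8 and 1 over all iKO samples. In iKO its CD4 T cell level was 48.1 ± 17.9.

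Gbp3, Gbp8 and Gbp9 had other orders. Gbp3 ran from 53.8 ± 8.46 CPM in control Treg to 10.7 ± 4.52 in neutrophils, with monocyte/macrophages second at 36.6 ± 19.5. Gbp8 ran from 33.4 ± 16.2 in CD4 T cells, through CD8 T cells at 30.5 ± 3.91 and mature dendritic cells at 27.7 ± 11.9, to 2.59 ± 1.72 in neutrophils and 0.995 ± 1.99 in B cells. Gbp9 ran from 43.4 ± 28.1 in B cells and 35.6 ± 12.9 in CD4 T cells to 8.93 ± 5.09 in cDC1 (n = 3). In iKO, ranges of neighbours overlapped in every order except that of Gbp7, where each CD8 T sample (154 ± 5.92) was above each cDC1 sample (76.3 ± 46.0, n = 3).

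**Figure D1:**
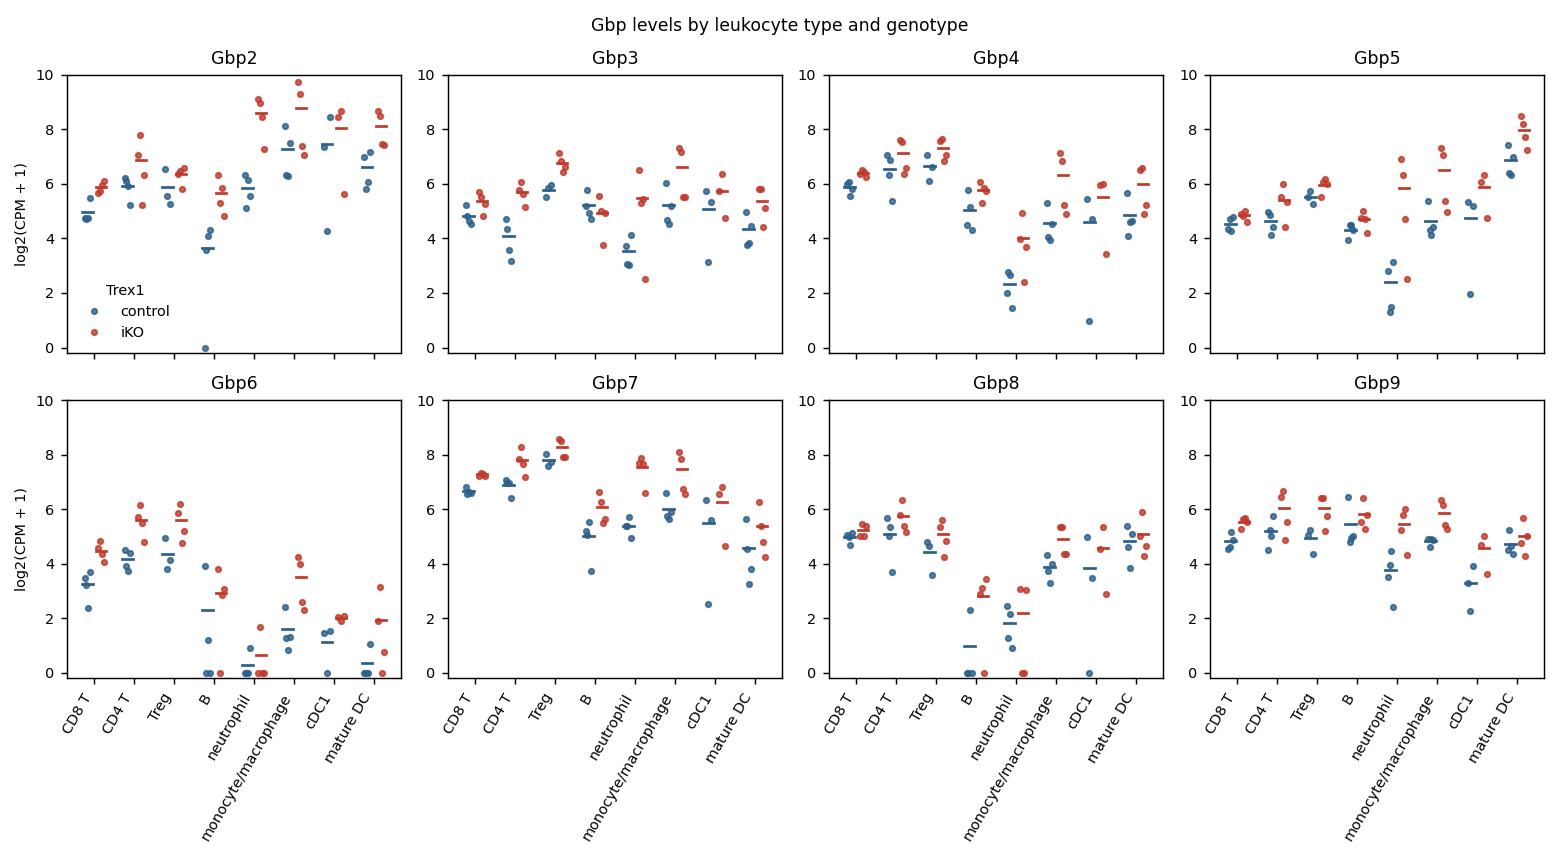
Level of each Gbp gene, as log2(CPM + 1), in 8 leukocyte types (x axis), with 1 point per hashtagged sample (blue control, red iKO) and a bar at the mean CPM. Gbp5 is highest in mature dendritic cells, Gbp6 is near 0 in neutrophils and dendritic cells, and Gbp2 in neutrophils is separate between the genotypes.

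The first comparison asked whether Gbp genes differed between genotypes in each leukocyte type. Each was tested with edgeR's quasi-likelihood test on counts summed per sample and type, with Benjamini-Hochberg adjustment over all genes of that type and a threshold of 0.05. All 72 tested combinations of a member with a type or with all cells had a higher mean fit in iKO, and 21 passed, with none lower. The share of all genes called higher ran from 0.141% in mature dendritic cells to 6.87% in Vcan/Chil3 monocytes. These combinations are not independent, since all cells and the monocyte/macrophage subsets given below hold cells that other profiles also hold. Only 3 of the 21 passed whichever single sample was left out: Gbp2 and Gbp7 in neutrophils and Gbp7 in CD8 T cells. The other 18 passed in at most 4 of these fits. The share of all genes was not taken in alternative fits or at an unadjusted p, so such counts below are descriptions only.

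In neutrophils Gbp2 and Gbp7 were called higher. Gbp2 stood at 548, 494, 350 and 152 CPM in iKO samples 1 to 4 and at 78.4, 33.3, 68.7 and 46.2 in control samples 1 to 4. Every iKO sample was above every control sample, and iKO 4 was the lowest of its group. The log2 fold change was 2.76 ± 0.39 (SE; adjusted p = 0.00206 with edgeR), a 6.76-fold difference. Gbp7 stood at 207, 232, 202 and 95.3 CPM in iKO and 40.7, 40.5, 51.1 and 29.6 in control, again without overlap. Its log2 fold change was 2.19 ± 0.30 (adjusted p = 0.00206 with edgeR). Gbp9 was at 37.0, 54.1, 63.2 and 19.1 CPM against 10.6, 14.5, 21.1 and 4.35, overlapping through iKO 4 and control 3, and did not pass (1.86 ± 0.48, adjusted p = 0.0717 with edgeR). So 2 of the 3 members tested were called higher, against 2% of all 4251 genes tested in neutrophils, and the same 2 did not overlap between genotypes, against 4.38%. The other 5 members were below the count filter: Gbp5, for example, had 59 counts in iKO and 15 in control, and 119, 78.9, 25.3 and 4.76 CPM against 6.03, 1.45, 1.76 and 7.84, with iKO 4 among the controls.

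The share of neutrophils with a Gbp2 UMI, each cell thinned to 2000 UMIs, was 26.7% ± 11.3 in iKO and 8.40% ± 2.66 in control (SD, n = 4), and 44.3% ± 10.1 and 13.2% ± 4.68 before thinning, which left out 8 and 26 shallower cells. For Gbp7 the thinned shares were 19.8% ± 5.24 and 7.21% ± 2.49. Cd3e, a T cell gene that neutrophils should lack, was at 2.24% ± 1.62 and 1.81% ± 1.05 in the same thinned cells. Csf1r, a receptor of the monocyte lineage, was at 7.58% ± 3.18 in iKO and 8.19% ± 2.23 in control, and the control shares of Gbp2 and Gbp7 were near it. The neutrophil gate limits Csf1r itself, so its share is capped and sets no floor for other genes. Whether the control shares of Gbp2 and Gbp7 are the neutrophils' own expression was not tested. The shares keep the types gated on full counts. Fits on thinned counts, here and for the other types, gated the cells anew on those counts, so the cells can differ. In that neutrophil fit Gbp2 (2.84 ± 0.38, adjusted p = 0.000706 with edgeR) and Gbp7 (1.79 ± 0.28, adjusted p = 0.00217) passed, and Gbp9 was not tested. Median depth was 5971 UMIs per neutrophil in iKO and 4013 in control. Numbers of neutrophils were small, 28 to 88 per iKO sample and 134 to 266 per control sample. Summed markers of monocyte/macrophages in gated neutrophils were 44.2 to 70.9 CPM in iKO and 98.4 to 153 in control, where the gate allows at most 1 such UMI per cell, and the 3 T cell markers summed to 41.4 to 56.8 and 43.0 to 75.5 CPM. The CD8 T markers summed to 9.19 to 54.2 and 4.16 to 27.3 CPM. In the iKO neutrophils Clec9a, Ncr1, Fscn1 and Flt3 were at 0, while the marker paired with each in its list, Xcr1, Klrb1c, Ccr7 and Cd209a, was detected. Summed over both markers, the Flt3 and Cd209a list stood at 0 to 43.7 CPM in iKO and 1.84 to 7.11 in control, and the Ccr7 and Fscn1 list at 0 to 6.25 and 6.06 to 18.4. The Clec9a and Xcr1 list stood at 0 to 2.30 and 0 to 1.78 CPM, and the Ncr1 and Klrb1c list at 0 to 7.1 and 0 to 1.84. The part of other cells' RNA in the neutrophil levels was not tested.

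In monocyte/macrophages 5 of the 8 members were called higher, Gbp5, Gbp6, Gbp7, Gbp8 and Gbp9, against 6.83% of the 11645 genes tested, and 2 of 8 did not overlap between genotypes, against 10.6%. Gbp9 stood at 79.4, 71.0, 41.4 and 38.0 CPM in iKO samples 1 to 4 and at 29.1, 23.7, 29.1 and 28.0 in control samples. The groups did not overlap, and the log2 fold change was 1.06 ± 0.23 (adjusted p = 0.0223 with edgeR). Gbp7 stood at 269, 230, 105 and 94.3 CPM against 96.6, 52.2, 48.4 and 58.2, where iKO 4 was below control 1. Its log2 fold change was 1.45 ± 0.37 (adjusted p = 0.0325 with edgeR). Gbp5 stood at 158, 132, 40.3 and 29.9 CPM against 40.6, 19.0, 16.3 and 20.3, with iKO 3 and iKO 4 within the range up to control 1, and its log2 fold change was 1.91 ± 0.54 (adjusted p = 0.0487 with edgeR). Gbp6 changed by 2.41 ± 0.61 and Gbp8 by 1.10 ± 0.31, the latter without overlap.

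Gbp2 in monocyte/macrophages had the widest spread. It was at 846 and 619 CPM in iKO 1 and iKO 2 and at 168 and 132 in iKO 3 and iKO 4, and at 273, 79.5, 76.7 and 180 in control samples 1 to 4. The last iKO pair lay inside the control range, and the log2 fold change of 1.53 ± 0.64 did not pass (adjusted p = 0.136 with edgeR). Gbp3 (1.40 ± 0.49, adjusted p = 0.0906 with edgeR) and Gbp4 (1.80 ± 0.53, adjusted p = 0.0550 with edgeR) also missed the threshold. In each of the 8 members iKO 1 and iKO 2 were the highest samples of all. Leaving out control 1 gave 7 called members and leaving out iKO 3 or iKO 4 gave 6, while leaving out any 1 of iKO 1, iKO 2, control 2, control 3 or control 4 gave 0. With every cell thinned to 2000 UMIs 1 of the 7 members tested was called, Gbp7 (1.36, adjusted p = 0.0240 with edgeR), with Gbp5 at 1.69 (0.0676), Gbp9 at 0.84 (0.0524), Gbp8 at 0.88 (0.245) and Gbp6 not tested.

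**Figure D2:**
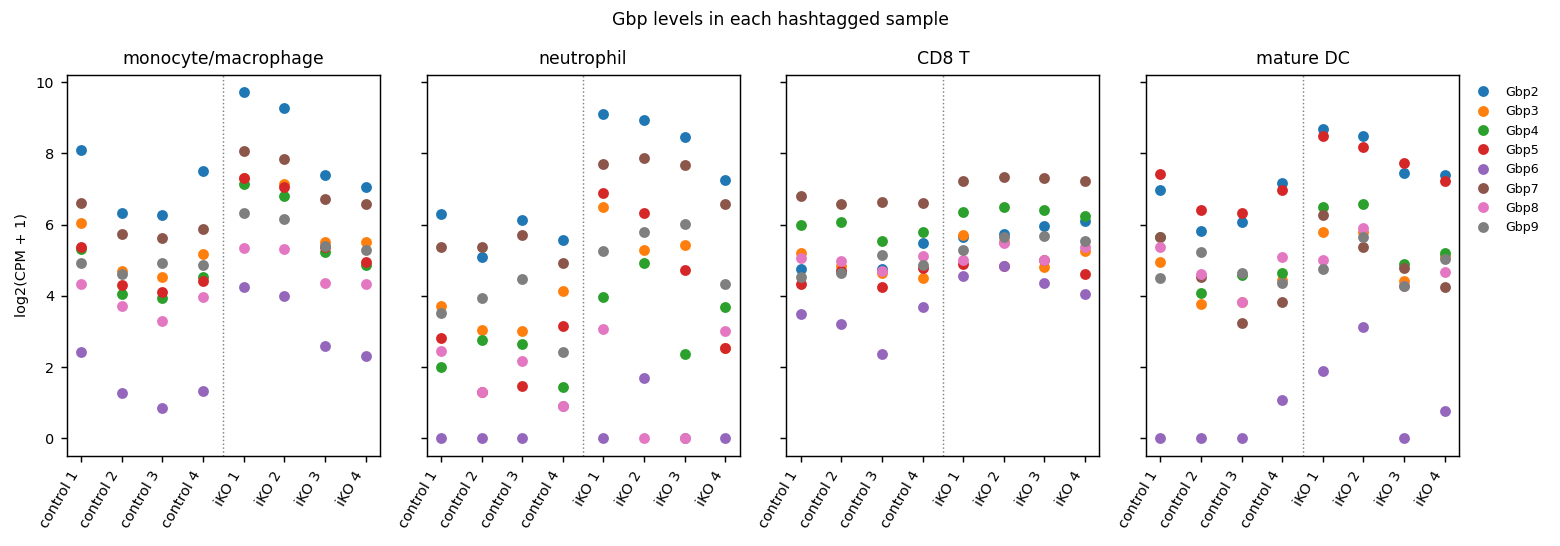
Level of the 8 Gbp genes, as log2(CPM + 1), in each hashtagged sample (x axis, control left and iKO right of the dotted line) in 4 leukocyte types. In monocyte/macrophages iKO 1 and iKO 2 stand above iKO 3 and iKO 4, in neutrophils Gbp2 and Gbp7 of all iKO samples stand above all controls, and in CD8 T cells Gbp7 of all iKO samples stands above all controls.

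The same samples differed in T cells and interferon gamma. CD8 T cells were 29.0% and 37.3% of kept cells in iKO 1 and iKO 2 and 12.65% and 10.75% in iKO 3 and iKO 4. In control samples 1 to 4 they were 20.4%, 12.55%, 7.51% and 5.35%. Ifng over all cells was 362 and 357 CPM in iKO 1 and iKO 2, 30.7 and 25.5 in iKO 3 and iKO 4, and 152, 56.55, 38.9 and 15.7 in the controls. In plain CPM, without the TMM factors that scale the levels given above and used for all sums here and for Ifng in this paragraph, the 8 Gbp genes summed to 1664, 1314, 484 and 410.5 CPM in monocyte/macrophages of iKO samples 1 to 4 and to 558, 223.5, 222 and 346 in those of control samples 1 to 4. The iKO pair with the high sums was the pair with the most CD8 T cells and Ifng, and control 1 was the highest control in all 3 measures. Other samples did not follow this order. Control 4 had the lowest CD8 T cell share and Ifng but a higher sum than control 2 and control 3. In iKO 3 and iKO 4 Ifng was lower than in control 2 and control 3, while the sums were higher. In CD8 T cells the sums were 442, 486, 462 and 458 CPM in iKO and 326.5, 307, 274 and 299.9 in control. The like sums of the iKO samples cover members that differed in both directions: Gbp3 stood at 51.5, 44.8, 27.0 and 37.1 CPM in iKO samples 1 to 4, while Gbp2, given below, was lower in iKO 1 and iKO 2 than in iKO 3 and iKO 4. Summed CD8 T markers inside gated monocyte/macrophages were 19.8 to 24.6 CPM in iKO and 5.68 to 8.13 in control, and the 3 general T cell markers 22.1 to 25.6 and 15.7 to 18.1. The part of T cell RNA, CD8 T cell number and Ifng in the Gbp levels was not tested.

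**Figure D3:**
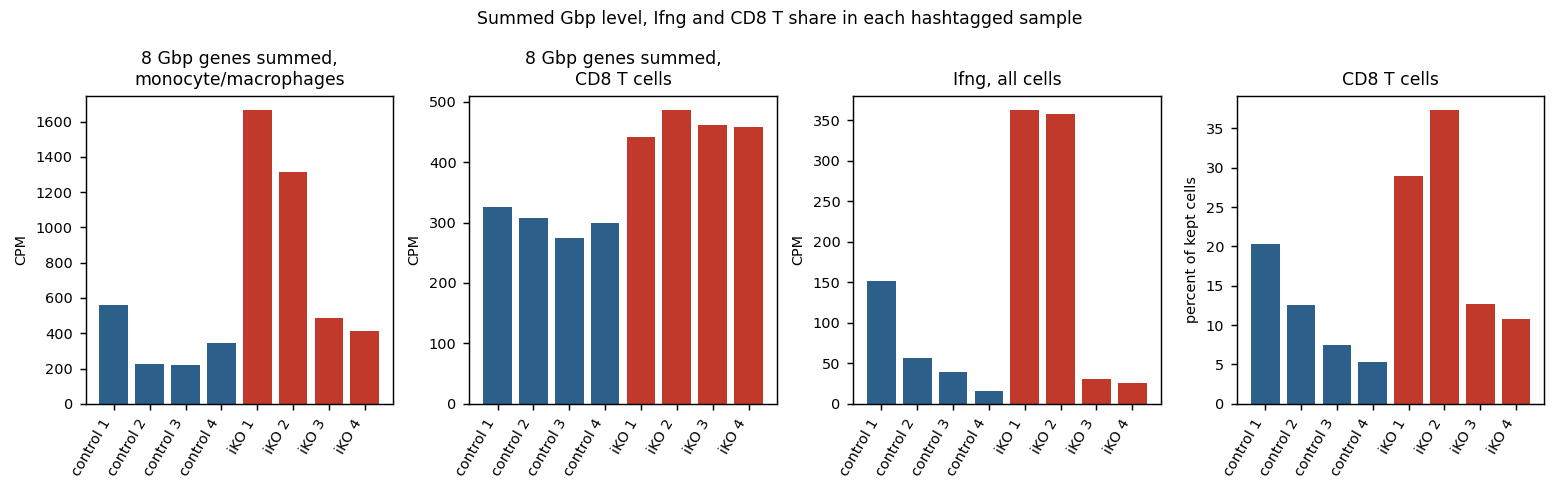
Bars give, for each hashtagged sample (blue control, red iKO), the summed plain CPM (without TMM factors) of the 8 Gbp genes in monocyte/macrophages and in CD8 T cells, the plain CPM of Ifng over all cells, and the percent of kept cells gated as CD8 T. The monocyte/macrophage sum, Ifng and the CD8 T share are highest in iKO 1 and iKO 2, while the CD8 T sum is 442 to 486 CPM in all 4 iKO samples.

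Within monocyte/macrophages, monocytes and C1q macrophages were also tested apart. Cells gated as monocytes had at least 2 UMIs of Vcan and Chil3 together and fewer than 2 of C1q genes. Those gated as C1q macrophages had at least 5 C1q UMIs and fewer than 2 of Vcan and Chil3 together. Monocytes had 5 of 8 members called higher, Gbp4, Gbp5, Gbp6, Gbp7 and Gbp9, against 6.87% of 9805 genes, and 3 did not overlap, against 10.2%. Gbp7 stood there at 301, 273, 135 and 105 CPM in iKO and at 85.2, 50.7, 35.7 and 82.3 in control, without overlap (log2 fold change 1.66 ± 0.37, adjusted p = 0.0203 with edgeR). Gbp6 stood at 17.2, 15.0, 5.55 and 2.75 CPM against 1.97, 1.30, 0 and 0.883 (3.29 ± 0.78, adjusted p = 0.0256 with edgeR), on 14 control counts. In C1q macrophages 0 of 7 tested members passed, against 0.155% of 9058 genes, and none was without overlap, against 5%. With edgeR 1 of the 7 had an unadjusted p under 0.05, and DESeq2 called 0. Their log2 fold changes were 0.79 to 1.37, and control 1 was high: Gbp4, for example, stood at 121, 115, 13.3 and 23.5 CPM in iKO and at 71.4, 15.5, 22.0 and 19.6 in control. A test of the difference between the subsets, chosen after seeing the data, found no member to differ (smallest adjusted p = 0.203, for Gbp6, 2.00 ± 0.54 higher in monocytes), so the unequal calls do not show unequal effects. Leaving out iKO 1, iKO 2, control 2 or control 3 left 0 called members in monocytes, and leaving out control 4 left 2.

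CD8 T cells had 4 of 8 members called higher, Gbp2, Gbp6, Gbp7 and Gbp9, against 1.26% of 9489 genes, and 5 did not overlap, against 5.65%. Gbp7 stood at 149, 160, 157 and 149 CPM in iKO samples and 111, 94.2, 97.6 and 96.6 in control samples. The groups were narrow and separate, and the log2 fold change was 0.62 ± 0.09 (adjusted p = 0.00862 with edgeR), a 1.54-fold difference. Gbp2 stood at 49.5, 52.5, 61.7 and 67.2 CPM against 26.1, 25.0, 25.95 and 43.7 (0.97 ± 0.19, adjusted p = 0.0278 with edgeR), also without overlap. Gbp6 stood at 22.8, 27.4, 19.4 and 15.6 CPM against 10.3, 8.34, 4.15 and 11.8 (1.34 ± 0.27, adjusted p = 0.0371 with edgeR). Gbp9 passed narrowly (0.77 ± 0.16, adjusted p = 0.0489 with edgeR). Gbp4 did not overlap, at 81.6, 89.9, 84.6 and 74.3 CPM against 63.0, 66.3, 45.7 and 54.7, and missed the threshold (0.52 ± 0.13, adjusted p = 0.0857 with edgeR). Gbp3, Gbp5 and Gbp8 overlapped between the groups, with log2 fold changes of 0.55 ± 0.21, 0.34 ± 0.15 and 0.27 ± 0.16. With the hashtag number as a block, Gbp3 (adjusted p = 0.0199 with edgeR) and Gbp4 (0.0158) passed too, giving 6. No label gives this pairing, which was judged from the same counts, so these calls are a description. Thinned to 2000 UMIs per cell, 0 of 8 passed with edgeR: Gbp7 stood at 0.47 (adjusted p = 0.240), Gbp2 at 0.96 (0.128), Gbp6 at 1.23 (0.0594) and Gbp9 at 1.20 (0.0617), where the deposited cells had medians of 14428 UMIs in iKO and 8940.5 in control. Leaving out 1 sample gave 1 to 3 called members, with 1 where control 2, iKO 2 or iKO 3 was left out and 2 where control 1, control 3, control 4 or iKO 4 was.

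Among CD4 T cells without Foxp3, 3 of 8 members were called higher, Gbp3, Gbp6 and Gbp7, against 1.59% of 5580 genes, and the same 3 did not overlap, against 4.46%. Gbp3 stood at 54.2, 65.3, 48.7 and 34.9 CPM in iKO and 25.3, 19.3, 10.9 and 8.09 in control, without overlap (1.58 ± 0.33, adjusted p = 0.0184 with edgeR), on 74 and 36 counts. Gbp6 stood at 51.0, 69.9, 44.6 and 26.7 CPM against 21.9, 14.0, 12.3 and 20.2 (1.52 ± 0.34, adjusted p = 0.0267 with edgeR). Gbp7 stood at 230, 312, 203 and 146 CPM against 135, 123, 124 and 85.0 (0.90 ± 0.21, adjusted p = 0.0367 with edgeR). Stricter gates left 5 members tested and 0 called, with Gbp7 at 0.85 (adjusted p = 0.0536 with edgeR) and Gbp3 and Gbp6 not tested. Thinning left 2 tested, of which Gbp7 passed (0.84, adjusted p = 0.0224 with edgeR). Leaving out control 2, control 3, control 4, iKO 1 or iKO 2 left 0. In Treg, where control 4 was left out for having 15 cells, Gbp3 was the 1 member of 8 called higher, against 0.716% of 6002 genes, and the 1 member without overlap, against 5.93%. It stood at 138, 113, 85.5 and 97.1 CPM in iKO and at 44.3, 56.8 and 60.4 in control samples 1 to 3, without overlap (0.99 ± 0.21, adjusted p = 0.0332 with edgeR). This call was lost with stricter gates (0.74, adjusted p = 0.205 with edgeR) and without any 1 of control 2, control 3, iKO 1 or iKO 2, and Gbp3 was not tested after thinning. Without control 1, 4 members passed, and without iKO 3, 3 did.

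Dendritic cells had no called member. In mature dendritic cells 0 of 7 passed, against 0.141% of 5656 genes, while with edgeR 4 of the 7 had an unadjusted p under 0.05 and DESeq2 called 2. For the unadjusted and DESeq2 counts of dendritic cells no share of all genes was taken. Gbp2 stood there at 408, 361, 173 and 169 CPM in iKO and 125, 55.4, 66.5 and 143 in control, the 1 member of 7 without overlap, against 3.93% of genes (1.52 ± 0.34, adjusted p = 0.0762 with edgeR). Gbp5 stood at 358, 288, 210 and 150 CPM against 171, 83.9, 79.8 and 124, with iKO 4 below control 1 (1.16 ± 0.28, adjusted p = 0.0946 with edgeR). In cDC1, with 3 samples per genotype, 0 of 7 passed, against 0.458% of 7212 genes, and 0 of 7 did not overlap, against 8.89%. With edgeR 1 had an unadjusted p under 0.05, and DESeq2 called 0. Gbp2 was at 347, 401 and 48.3 CPM in iKO 1, iKO 2 and iKO 4 and at 162, 18.3 and 349 in control 1, control 3 and control 4. Monocyte/macrophage markers in the same gated cDC1 summed to 1831, 2162 and 623 CPM and to 1992, 161 and 986 CPM, and their part in the Gbp levels was not tested.

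B cells had too few Gbp counts for the filter, so 0 of 8 members were tested, while 2.05% of the 2588 genes that were tested were called higher. Gbp2 had 37 counts in iKO and 29 in control, at 78.2, 38.4, 56.8 and 27.2 CPM against 0, 10.8, 15.9 and 18.7, and was the 1 member of 8 whose groups did not overlap. Of the genes tested 4.64% did not overlap, which is no like background, since no member passed the filter. Natural killer (NK) cells, Cd209a-positive dendritic cells and plasmacytoid dendritic cells had too few cells per sample for a test, and the values that follow come from counts summed over all samples of a genotype with 95% Poisson intervals, which cover counting error only. In NK cells Gbp7 stood at 139 CPM (110 to 173) in iKO and 121 (87.0 to 164) in control, and Gbp4 at 104 (79.5 to 134) and 115 (82.0 to 158). Gbp2 stood at 118 CPM (99.3 to 139) in iKO and 117 (100.8 to 134) in control in Cd209a-positive dendritic cells, and Gbp5 at 43.5 (32.5 to 57.1) and 18.9 (13.0 to 26.7). In plasmacytoid dendritic cells Gbp6 had 3 counts in iKO and 0 in control, which allows up to 7.73 CPM at 3 counts, with a 95% Poisson upper limit of 9.50 CPM.

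Over all kept cells, where a change in level cannot be told apart from a change in the share of types, 1 of 8 members was called higher, against 1.72% of 13460 genes, and 3 did not overlap (Gbp5, Gbp6 and Gbp9), against 7.04%. This was Gbp9, at 56.6, 55.4, 37.5 and 36.8 CPM in iKO and 24.0, 22.9, 25.9 and 26.8 in control (0.90 ± 0.16, adjusted p = 0.0286 with edgeR). It did not pass without iKO 1, iKO 2, control 1, control 2 or control 3. With the hashtag number as a block, Gbp5 (adjusted p = 0.0328 with edgeR), Gbp6 (0.00951) and Gbp7 (0.0154) passed beside Gbp9 (0.0398), giving 4, and DESeq2 called 5. The block's calls are a description, since its pairing was judged from the same counts and no label gives it.

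**Figure D4:**
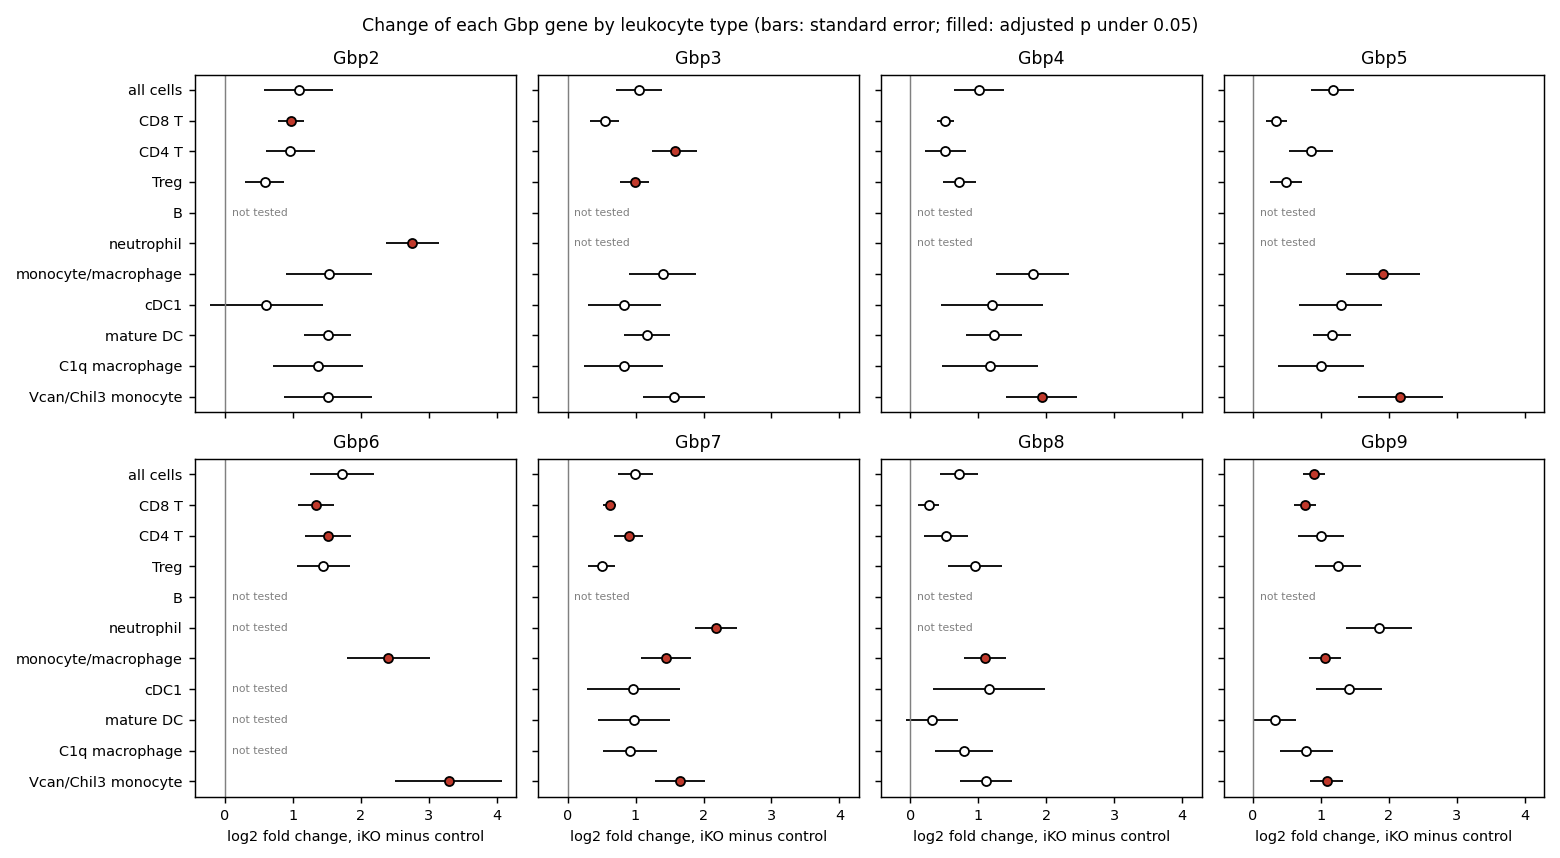
Log2 fold change (iKO minus control, x axis) of each Gbp gene in all cells and in each leukocyte type (y axis), with bars of 1 standard error and filled points where edgeR's adjusted p was under 0.05. All tested points lie above 0. Filled points include Gbp7 in neutrophils, CD8 T cells, CD4 T cells, monocyte/macrophages and monocytes. They also include Gbp2 in neutrophils and CD8 T cells, and Gbp3 in CD4 T cells and Treg. Gbp5 was called in monocyte/macrophages and monocytes, and Gbp8 in monocyte/macrophages only. A filled point in 1 type and an open point in another do not show that the effects differ.

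Whether effects differed between types was tested with the genotype-by-type term, monocyte/macrophages against each other type. In neutrophils the Gbp2 effect was 1.31 ± 0.35 larger on the log2 scale (adjusted p = 0.110 with edgeR), so it was not shown to differ. In CD8 T cells the effect was smaller for each member, by 0.23 to 1.38, with no adjusted p under 0.304. In Treg the Gbp7 effect fell short by -0.89 ± 0.22 (adjusted p = 0.0896 with edgeR). In B cells no member had a tested effect of its own, and the members entered this comparison through their monocyte/macrophage counts. Their values there are therefore given as a description and not as a shown difference. The fit put 2 of 8 past the threshold, beside 0.647% of 10826 genes called lower: Gbp3 at -1.64 ± 0.41 (adjusted p = 0.0114 with edgeR) and Gbp5 at -1.68 ± 0.46 (adjusted p = 0.0325 with edgeR). Without the hashtagged sample as a term they were -1.55 and -1.75 and did not pass (adjusted p = 0.572 and 0.589 with edgeR). The exact permutation test over samples gave -1.60 and -1.26 (p = 0.0571 and 0.114, two-sided), where 0.0286 is the smallest it allows.

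The related genes were described by lists. Among the other Gbp genes Gbp2b and Gbp10 were tested over all cells and neither passed, at 1.68 ± 0.79 and 2.41 ± 0.99, and Gbp11 was not analysed here. The immunity-related GTPases, a smaller interferon-induced GTPase family that shares vacuole defence with the Gbp proteins, also had called genes: 7 of 9 tested were called higher in monocyte/macrophages, 8 of 8 in monocytes, 5 of 7 in CD8 T cells, 3 of 3 in neutrophils and 4 of 9 over all cells, where the shares of all genes called higher were 6.83%, 6.87%, 1.26%, 2% and 1.72%. In CD4 T cells 1 of 5 was called, against 1.59% of all genes, and none was tested in B cells. With edgeR 0 of 7 passed in Treg, 0 of 7 in C1q macrophages, 0 of 8 in cDC1 and 0 of 4 in mature dendritic cells, with 6, 5, 7 and 4 at an unadjusted p under 0.05. No share of all genes was taken for these unadjusted counts. Their median log2 fold change in monocyte/macrophages was 2.01, that of the 8 Gbp members 1.49 and that of all genes -0.0042. Irgm1, a regulator of the family, stood at 179 ± 98.8 CPM in iKO and 46.8 ± 15.1 in control monocyte/macrophages (1.94 ± 0.40, adjusted p = 0.0178 with edgeR). Igtp, another regulator, stood at 111 ± 70.9 and 29.6 ± 15.2 (1.91 ± 0.50, adjusted p = 0.0368). The largest called change in the list there was that of Tgtp2 (2.60 ± 0.59), and in neutrophils that of Ifi47, at 171 ± 118 and 16.3 ± 4.61 CPM (3.35 ± 0.51, adjusted p = 0.00309 with edgeR).

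Of the genes that feed interferon signals to Gbp promoters, 4 of 16 were called higher in monocyte/macrophages, against 6.83% of all genes. Among them were Ifng, Stat2 and Irf9. Stat2, a transcription factor of the type I interferon pathway, stood at 118 ± 59.8 CPM in iKO and 37.2 ± 9.13 in control (1.67 ± 0.35, adjusted p = 0.0194 with edgeR). Irf1, itself an interferon gamma target, stood at 150 ± 92.2 and 60.4 ± 29.3 and did not pass (1.31 ± 0.47, adjusted p = 0.0969). Ifng had the largest called change of the list (1.93 ± 0.24, adjusted p = 0.00432 with edgeR) at the low level of 8.87 ± 2.29 and 2.42 ± 0.61 CPM, beside the T cell markers in these cells given above. Within CD8 T cells Ifng stood at 448 ± 342 and 267 ± 132 CPM and did not pass (0.75 ± 0.55, adjusted p = 0.505 with edgeR). There 1 of 15 tested list genes was called higher, against 1.26% of all genes. In neutrophils 2 of 12 were called higher, against 2% of all genes. Stat2 was among them, at 71.8 ± 16.7 CPM in iKO and 25.99 ± 12.5 in control (1.42 ± 0.34, adjusted p = 0.0490 with edgeR).

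Inflammasome genes, which act downstream of Gbp proteins, had 3 of 8 called higher in monocyte/macrophages, against 6.83% of all genes: Casp1, Gsdmd and Il18. Gsdmd, the pore-forming protein of pyroptosis, stood at 95.8 ± 20.1 CPM in iKO and 63.3 ± 9.77 in control (0.60 ± 0.16, adjusted p = 0.0402 with edgeR), and Casp1, the protease of the inflammasome, had the largest called change (0.97 ± 0.27). Casp4 stood at 94.2 ± 43.4 and 43.7 ± 13.1 (1.11 ± 0.33, adjusted p = 0.0551). Aim2, a sensor of cytosolic DNA, stood at 39.6 ± 6.07 and 30.8 ± 5.44 (0.37 ± 0.15, adjusted p = 0.13). In CD8 T cells 0 of 7 list genes were called higher, against 1.26% of all genes, with 3 at an unadjusted p under 0.05 with edgeR. Among the ubiquitin-like conjugation genes that help load Gbp proteins on vacuoles, 0 of 10 were called higher and 1 lower in monocyte/macrophages, Gabarapl1, at 15.9 ± 2.43 and 25.9 ± 6.08 CPM, which fell by 0.71 ± 0.18 on the log2 scale (adjusted p = 0.0308 with edgeR). The list's median there was -0.07, and no share of all genes called lower is given beside the count called lower.

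Across 61 profiles of a type in a sample, which share libraries and depth, the genes among 5820 whose log2(CPM + 1) followed the mean of the 8 members most closely included Ifi47 (Pearson r = 0.893), Nmi (0.839) and the MHC class I genes H2-T22 (0.811) and B2m (0.798), given as a description. Among the members themselves Gbp4 and Gbp6 were most alike (r = 0.789), followed by Gbp6 and Gbp7 (0.709). The control levels of these genes were highest in T cells among the types compared, which leave out natural killer cells. Both pairs hold Gbp6, whose counts are uncertain, and the 3′ words that Gbp4 shares with other genes recur in Gbp6 and Gm43302. The part of this sharing in the likeness was not tested. Gbp2 and Gbp6 were least alike (r = -0.05). In control samples Gbp2 was highest in cDC1, monocyte/macrophages and mature dendritic cells, while Gbp6 was near 0 in cDC1, mature dendritic cells and neutrophils. Gbp2 was closest to Gbp5 (r = 0.555).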

How the data were processed

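Droplet single-cell RNA sequencing (10x 3′ v3, TotalSeqA hashtags, per the labels' protocols) gave 1 matrix per hashtagged sample. The deposited values are whole-number UMI counts per gene and barcode. The file headers name Cell Ranger 7.1.0, and the submitters' processing notes name build GRCm39; intron and demultiplexing settings are not given in those sources. Coordinates of promoters are of GRCm38.p6, the RefSeq table's build, and the 3′-end check used GENCODE transcripts of GRCm38. In 7 matrices every cell had its own hashtag as the highest, in iKO 3 99.8%; 45 barcodes recur between pools and 0 within a pool. Replicates differed by more than sampling noise, so none was a duplicate. The 92 spike-in features were left out, and 0 columns belonged to other series.

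Cells with at least 300 genes and at most 10% mitochondrial counts were kept, which removed 1241 of 23731, and 439 with a Scrublet score over 0.25 (scanpy 1.11.5, expected rate 0.06) were removed. Types were gated on marker UMIs, with minimums set after seeing the data, and summed per sample for profiles of at least 20 cells. The sums were tested with edgeR's quasi-likelihood test (4.0.16, R 4.3.3; filterByExpr, TMM, Benjamini-Hochberg) without a block; CPM use TMM factors computed within a type, which moved no level beyond the spread between samples, while sums over genes, marker sums and counts pooled over samples are plain CPM. The standard error is the fold change divided by the square root of F. On simulated counts the fit recovered 89.0% of 200 genes changed 4-fold and 43.5% of those changed 2-fold in neutrophils (4251 genes), and 96.5% and 71.0% in monocyte/macrophages (11645 genes), with a false share of 3.78% to 7.45%. The simulation gave every gene the same fixed dispersion, not one estimated from the data. These shares therefore need not hold for members with a wide spread between samples, such as Gbp2 in monocyte/macrophages. Alternatives were DESeq2 1.42.0, size-factor normalization, no count filter, a replicate block, single samples left out, stricter gates, Leiden clusters (leidenalg 0.10.2), thinning to 2000 UMIs, no doublet or cell filter and at least 50 cells. Thinned fits left out cells below 2000 UMIs and applied the gates to the thinned counts, while thinned shares kept the types of the full counts.

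The hashtag numbers may pair samples: correlations of same-numbered samples' deviations from their group means were 0.118 to 0.601 over all cells and 0.134 to 0.615 in CD8 T cells, all above 0.1, but not in any other type (-0.126 to 0.372). The pairing comes from these data, since no label says what a number marks.

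Members and lists were chosen with earlier results of these data known. Named beside the 8 members are Irf1, Ifng, Igtp, Irgm1, Casp4, Aim2, Gsdmd and, per list, genes with the largest called change; others are named where a count of 5 or fewer is listed, and were chosen after their values were seen. Some results that this rule covers are not reported here. Differences between types used the genotype-by-type term with the hashtagged sample as a term.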

Additional observations from a re-analysis of the deposited data

Results flagged for a closer look

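Among 152 groups of 4 samples (a member in a type and genotype), 13 held a sample far from the other 3. The rule flags about 1 in 20 groups of independent, normally distributed values. Here the groups share samples and cells, and a group with 3 values of 0 and a count is always flagged. The 13 are therefore not compared with that rate. Control 1 was far above the other controls for 5 members in C1q macrophages, a profile of 78 cells: Gbp3 at 89.6 CPM against 26.8 to 36.5, Gbp4 at 71.4 against 15.5 to 22.0, Gbp6 at 12.7 against 0.595 to 2.06, Gbp7 at 114 against 51.1 to 58.2 and Gbp8 at 43.6 against 14.9 to 19.4. It was also far above them for Gbp5 in monocyte/macrophages, at 40.6 CPM against 16.3 to 20.3, and for Gbp9 in B cells, at 85.6 against 27.1 to 31.1. Control 1 also had the highest CD8 T cell share and Ifng level of the controls, 20.4% and 152 CPM, and the part of either was not tested.

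Control 4 was far above the other controls for Gbp2 in CD8 T cells, at 43.7 CPM against 25.0 to 26.1. The remaining 5 rest on few counts: Gbp6 in B cells of control 1 at 14.3 CPM against 0 to 1.33, on 2 counts and under the 21.4 CPM that 3 counts would give in that sample, Gbp8 in B cells of control 3 at 3.98 CPM against 0, Gbp6 in neutrophils of control 4 at 0.871 and of iKO 2 at 2.25 against 0, and Gbp6 in mature dendritic cells of control 4 at 1.10 against 0.

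The genotype-by-type term of B cells against monocyte/macrophages was -1.64 for Gbp3 and -1.68 for Gbp5 on the log2 scale, past the threshold in that fit, 2 of 56 such terms. Both genes were below the count filter within B cells and entered through their monocyte/macrophage counts, so a difference is not shown: Gbp3 had 25 counts in iKO and 63 in control, and Gbp5 19 and 41.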

How the results depend on the processing

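Of 1163 alternative values of the 72 fold changes, 1162 kept their direction, 978 also their side of the threshold, 112 lost it and 72 gained it; the exception in direction was Gbp8 in mature dendritic cells without iKO 2 (-0.066; range over samples left out -0.066 to 0.488). For members called higher, DESeq2 gave 5 over all cells (1 as reported) and 2 in mature dendritic cells (0). Without a count filter the counts were 5 in CD4 T cells (3), 4 in Treg (1), 1 in B cells (0), 5 in neutrophils (2), 7 in cDC1 (0) and 5 in mature dendritic cells (0). The share of all genes called was not taken in any alternative fit. Changed counts in this section are therefore not read as results about the members. With the replicate block they were 4 over all cells, 0 in Treg and 2 in mature dendritic cells (Gbp2 and Gbp5), and the pairing check held only for all cells and CD8 T cells; in those 2 profiles the best-matching sample of the other genotype had the same number for 2 of the 4 numbers. The block fit changed no other count by over 1.5 times. Stricter gates gave 0 in CD4 T cells (5 members tested, without Gbp3 and Gbp6), 0 in Treg and 3 in monocyte/macrophages (5). Leiden clusters in place of gates gave 2 in Treg, 4 in neutrophils and 3 in monocyte/macrophages. Thinning gave 4 of 8 tested over all cells, 0 of 8 in CD8 T cells (4), 1 of 2 in CD4 T cells, 0 of 2 in Treg (Gbp3 not tested) and 1 of 7 in monocyte/macrophages (Gbp6 not tested), and no cell filter gave 3 there. Beside these smaller numbers tested, and the gating anew of thinned cells, the cause of the shifts was not tested. Leaving out each sample gave 0 to 1 over all cells, 1 to 3 in CD8 T cells, 0 to 4 in CD4 T cells, 0 to 4 in Treg, 2 to 5 in neutrophils (5 without iKO 4), 0 to 7 in monocyte/macrophages, 0 to 2 in mature dendritic cells, 0 to 6 in monocytes (5) and 0 in B cells, cDC1 and C1q macrophages. The count of B cell differences past the threshold went from 2 to 0 without the replicate block on hashtagged samples, with values of -1.55 and -1.75; that fit also turned the differences of Gbp2 (0.15) and Gbp8 (0.15) in B cells, Gbp8 in cDC1 (0.044) and Gbp2 in mature dendritic cells (-0.026). The exact permutation fit turned those of Gbp2 (1.27) and Gbp8 (0.78) in B cells, Gbp4 in neutrophils (-0.032), Gbp8 in cDC1 (0.31) and Gbp6 in mature dendritic cells (-0.64), none of them called in any fit. Shares of cells were higher without thinning in 189 of 200 values. Depth limits Gbp6, and every member in B cells. Not run, for lack of profiles or of a meaning: gates and clusters over all cells, clusters for both myeloid subsets and cDC1, thinning and the block for cDC1, and at least 50 cells in 6 types.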
